A study of Mus musculus with 21 samples.

Results

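Collagen folding and processing enzymes were followed by 10 genes: the prolyl hydroxylase subunits P4ha1 and P4ha2, the lysyl hydroxylases Plod1, Plod2 and Plod3, the collagen chaperone Serpinh1, the prolyl isomerase Ppib, the propeptide protease Bmp1 and its enhancers Pcolce and Pcolce2. They were 10 of the 12393 genes with a symbol on the array. All probe sets annotated to these genes were taken; the one with the highest mean intensity is called the first probe set of a gene. This gave 17 of the 22626 probe sets left after array controls were removed. Of these, 15 passed the filter on dim signal and were tested, at least 1 for each gene. Both probe sets that did not pass were Bmp1 probe sets.

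The samples were whole right lungs of inbred C57BL/6, C3H/HeJ and A/J mice, measured on 21 Affymetrix arrays, each holding the RNA of a pool of 3 to 5 mice. Bleomycin, a chemotherapy agent with lung toxicity, was delivered to the treated mice by osmotic minipump. The sources used here do not give the treatment of the control mice or the age of any mice. The C57BL/6 groups were 3 weeks after bleomycin (2 pools), 6 weeks (1 pool, female), moribund mice with no time given (2 pools) and controls (2 pools). The C3H/HeJ groups were 3 weeks, 6 weeks and controls, with 2 pools each. The A/J groups were 3 weeks (4 pools), 6 weeks (2 pools) and controls (2 pools). The dose was 100 mg/kg in male pools and 125 mg/kg in female pools, except that A/J at 3 weeks also had a male pool at 80 mg/kg and a female pool at 100 mg/kg. In other groups of 2 pools, 1 was male and 1 was female, so sex and dose cannot be told apart within treated groups.

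Newly made procollagen chains are hydroxylated on proline and lysine in the endoplasmic reticulum before they fold into a triple helix. Proline hydroxylation makes the helix stable at body temperature, and lysine hydroxylation provides the sites for sugars and for certain crosslinks. Serpinh1 (HSP47) binds the folded helix and Ppib (cyclophilin B) turns proline bonds, and outside the cell the terminal propeptides are cut off so that fibrils can form. Collagen accumulates in the lung in bleomycin-induced fibrosis, a standard rodent model of scarring.

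The lung epithelial genes Sftpc and Scgb1a1 had normalized intensities of at least 6041 and 6372 on every array. Medians of the deposited intensities ran from 58.6 to 111, a ratio of 1.9, and arrays were quantile normalized before testing. Correlations between arrays ran from 0.879 to 0.978. As a measure of RNA integrity, the Gapdh 3′ to 5′ control ratio spanned 0.77 to 2.08, with its maximum in the C3H/HeJ female pool at 6 weeks. Xist intensity was 287 in the A/J male pool at 3 weeks and 80 mg/kg and 409.1 in the C3H/HeJ male pool at 3 weeks. These values were above the other male pools (83.1 to 160) and below the female pools (609 to 3820). The lowest female values were 609 in the moribund and 902 in the 3 week C57BL/6 pool. All other female pools had at least 1490. The Y-linked genes Kdm5d and Eif2s3y matched the labelled sex on every array. Two-sided tests came from 1 limma model of all 21 arrays with a term for sex, and a call was a Benjamini-Hochberg adjusted p under 0.05 over 15084 probe sets. Differences are on the scale of log2(normalized intensity + 16), and for 2 pools against 2 their median standard error was 0.21. The genes lie on GRCm38.p6 at chr9:95637628-95695551 (Pcolce2), chr4:147909753-147936776 (Plod1), chr5:136987019-136996646 (Plod3), chr7:99345375-99353239 (Serpinh1), chr14:70474555-70520716 (Bmp1), chr5:137605105-137611522 (Pcolce), chr9:92539636-92608428 (Plod2), chr10:59323197-59373304 (P4ha1), chr11:54100924-54131668 (P4ha2) and chr9:66060169-66066629 (Ppib). In bulk tissue, fewer cells of a type and less RNA per cell cannot be told apart.

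The promoters of Pcolce2, Plod1, Plod3 and Serpinh1 are shown because these genes had the called changes within C57BL/6 lungs. Each line is the 250 bases before the annotated start in RefSeq (GRCm38.p6), written 5′ to 3′ on the strand of the gene. The windows are chr9:95637378-95637627 (plus strand) for Pcolce2, chr4:147936777-147937026 (minus) for Plod1, chr5:136986769-136987018 (plus) for Plod3 and chr7:99353240-99353489 (minus) for Serpinh1. Capitals mark the core of the hypoxia response element, ACGTG or GCGTG, on either strand. P4ha1, P4ha2, Plod1 and Plod2 are textbook targets of hypoxia-inducible factor in other settings.
Pcolce2: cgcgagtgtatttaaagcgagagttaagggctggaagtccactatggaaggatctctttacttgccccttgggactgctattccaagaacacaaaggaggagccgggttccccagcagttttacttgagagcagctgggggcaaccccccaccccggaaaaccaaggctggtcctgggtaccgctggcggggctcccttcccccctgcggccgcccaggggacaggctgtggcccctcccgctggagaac
Plod1: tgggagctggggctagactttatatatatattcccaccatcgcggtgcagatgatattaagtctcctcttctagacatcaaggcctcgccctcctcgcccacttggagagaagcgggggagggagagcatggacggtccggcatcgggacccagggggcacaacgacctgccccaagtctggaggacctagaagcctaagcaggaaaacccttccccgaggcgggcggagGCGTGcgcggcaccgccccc
Plod3: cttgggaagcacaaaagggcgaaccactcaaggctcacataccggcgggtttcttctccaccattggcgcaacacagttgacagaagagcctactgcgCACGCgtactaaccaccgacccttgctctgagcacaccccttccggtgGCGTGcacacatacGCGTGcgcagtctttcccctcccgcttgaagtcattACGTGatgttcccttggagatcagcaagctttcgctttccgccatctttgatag
Serpinh1: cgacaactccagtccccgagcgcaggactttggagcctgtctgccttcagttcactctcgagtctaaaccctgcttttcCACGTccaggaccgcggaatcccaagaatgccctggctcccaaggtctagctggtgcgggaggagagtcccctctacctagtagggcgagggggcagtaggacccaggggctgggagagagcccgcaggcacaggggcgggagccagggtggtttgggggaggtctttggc
These letters were present in 7 of the 8 member windows in the table, and in 38.6% of all 32851 promoter windows of that length. A match of this kind is a description of the sequence and not a measured binding site. The window of Pcolce2 was the member window without a match, and the table held none for Plod2 and Bmp1.

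Pcolce2 fell strongly in bleomycin-treated C57BL/6 lungs, and Plod1 and the first probe set of Serpinh1 were called higher there at 3 weeks. Both rises lost their call with the intensities as deposited and when certain single arrays were left out. The Pcolce2 signal was 0.22 times the control level at 3 weeks. Its difference from the response in each other strain passed its own test, though not with the intensities as deposited. Plod3 was called higher at 3 weeks in the mean of the 3 strains and in moribund C57BL/6 lungs, but not with the intensities as deposited. Its moribund call was also lost when certain single arrays were left out. P4ha1, P4ha2, Plod2, Pcolce and Ppib had no call against controls in any strain or stage.

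At 3 weeks in C57BL/6 lungs 3 of the 15 tested probe sets were called (Plod1 and Serpinh1 higher, Pcolce2 lower), while 10.7% of all probe sets were called, 5.66% higher and 5.04% lower. In moribund C57BL/6 lungs 3 were called (Plod1 and Plod3 higher, Pcolce2 lower), against a background of 12.8%, 5.86% higher and 6.9% lower. The balance of all calls moved with scaling: at 3 weeks 854 of 1614 were higher, against 201 of 467 as deposited, and in moribund lungs 884 of 1925, against 171 of 809. None was called at 3 weeks in C3H/HeJ lungs (background 1.7%) or A/J lungs (0.842%), with 3 at an unadjusted p under 0.05 in each. At 6 weeks none was called in C3H/HeJ (0.0663%, 2 unadjusted) or A/J lungs (0.0994%, 1 unadjusted). Neither did any member pass between moribund and 3 week C57BL/6 lungs (background 0.00663%, 2 unadjusted). The same held between 6 and 3 weeks in C3H/HeJ (0.0994%, 4 unadjusted) and A/J lungs (0.0133%, 2 unadjusted). These percentages are shares of adjusted calls. Of all 15084 probe sets, 2243 had an unadjusted limma p under 0.05 at 3 weeks in C3H/HeJ lungs and 1517 in A/J lungs. At 6 weeks the numbers were 672 and 709. Between moribund and 3 week C57BL/6 lungs it was 1433. Between 6 and 3 weeks it was 2113 in C3H/HeJ and 699 in A/J lungs. The comparisons with controls within a strain share those controls. The counts of called members are limma calls, and in the C57BL/6 comparisons only Pcolce2 remained called with the deposited scaling.

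**Figure D1:**
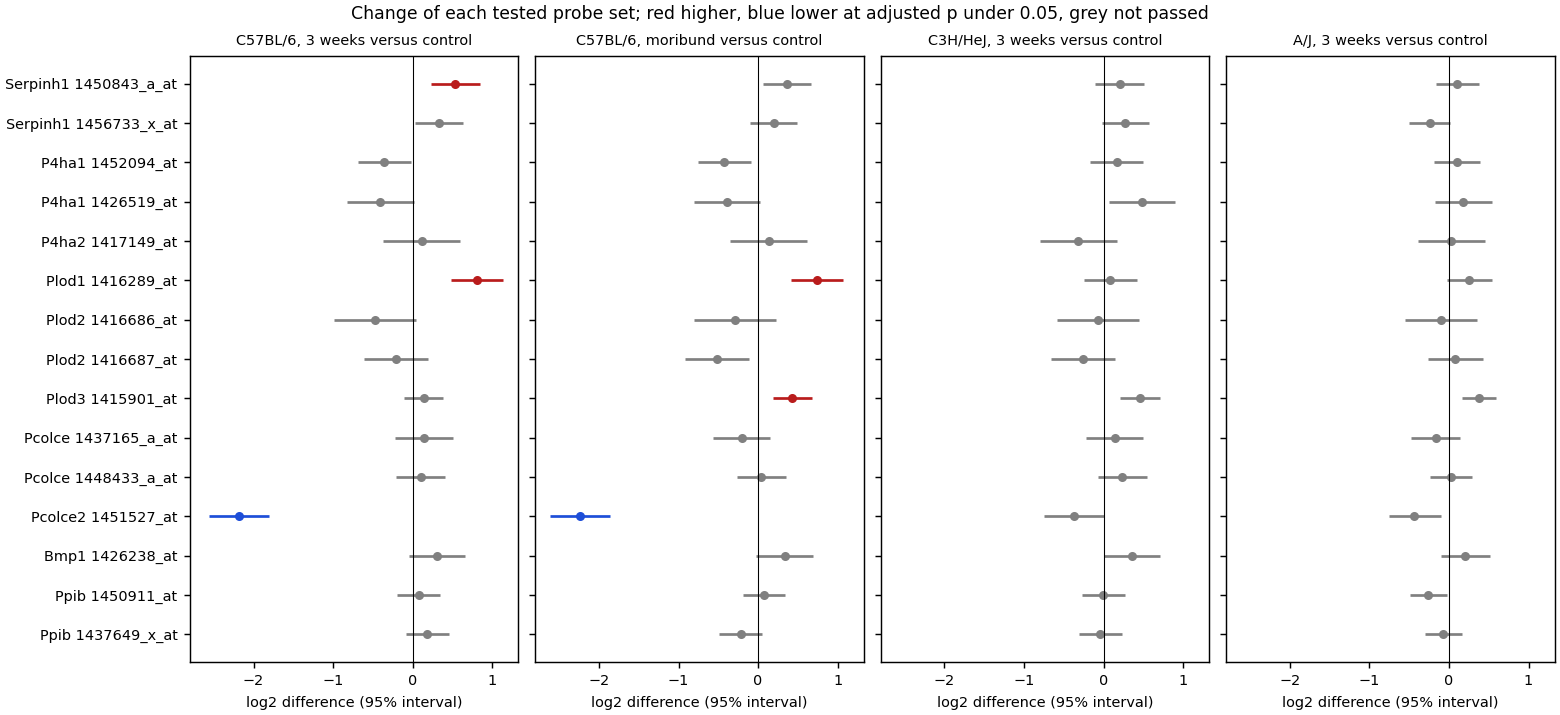
Differences in log2(normalized intensity + 16) of the 15 tested probe sets, with 95% intervals, for C57BL/6 at 3 weeks, moribund C57BL/6, C3H/HeJ at 3 weeks and A/J at 3 weeks, each against the controls of its strain. Red and blue mark calls above and below the controls, and grey marks probe sets without a call. Pcolce2 lies at -2.19 and -2.23 in the C57BL/6 panels and at -0.37 and -0.43 in C3H/HeJ and A/J.

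Pcolce2, which binds procollagen propeptides and enhances their removal by Bmp1-type proteases, had a normalized intensity of 224.1 in the male pool and 290.5 in the female pool of C57BL/6 lungs at 3 weeks, against 1246 and 1194 in the control pools. Moribund C57BL/6 pools had 310.8 in males and 195.3 in females. All treated C57BL/6 pools, including the single 6 week pool at 446.3, lay below every control pool and below every pool of the other strains. The 3 week difference was -2.19 on the log2 scale (SE 0.18, adjusted p = 1.71e-06), 0.22 times the control level. For moribund lungs it was -2.23 (SE 0.18, adjusted p = 9.09e-07). Both calls were kept when each array in turn was left out and when the arrays were used as deposited.

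In C3H/HeJ lungs Pcolce2 had intensities of 582.1 and 587.2 at 3 weeks, against 754.2 and 771.1 in controls. The 3 week pools lay below the controls, but the difference of -0.37 (95% interval -0.75 to 0.003) did not pass (adjusted p = 0.34). In A/J lungs the 4 pools at 3 weeks had 525.2, 505.7, 547.1 and 645.1, against 775.6 and 730.4 in controls. These groups did not overlap either, with a difference of -0.43 (interval -0.76 to -0.11, adjusted p = 0.316). At 6 weeks the values were 683.8 and 735.1 in C3H/HeJ and 650.2 and 659.3 in A/J lungs, between those of the 3 week pools and the controls. The 6 week differences from controls were -0.10 and -0.20 and did not pass (adjusted p = 1 in C3H/HeJ and 0.999 in A/J).

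The strain difference was tested directly for each probe set, as the 3 week response of one strain minus that of another. For Pcolce2 the C57BL/6 response was lower than the C3H/HeJ response by -1.81 (SE 0.25, adjusted p = 0.00574) and lower than the A/J response by -1.75 (SE 0.24, adjusted p = 0.00231). It was the only member called in either comparison, in which 0.152% and 1.07% of all probe sets were called. No member was called between the C3H/HeJ and A/J responses, where no probe set at all was called by limma and 518 had an unadjusted p under 0.05, 1 of them a member. The C57BL/6 and C3H/HeJ difference was not called without the C57BL/6 male pool at 3 weeks (-1.62, adjusted p = 0.0831). With the deposited scaling neither passed: they were -1.52 (adjusted p = 0.46) against C3H/HeJ and -1.47 (adjusted p = 0.248) against A/J.

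Control levels were compared between strains as well. Pcolce2 was higher in C57BL/6 controls than in A/J controls by 0.68 (SE 0.18, adjusted p = 0.0461), while 3.17% of all probe sets were called. Against C3H/HeJ controls the difference was 0.67 and did not pass (adjusted p = 0.0604), with 2.5% of all probe sets called. Between C3H/HeJ and A/J controls 1.01% were called and no member. The A/J call was lost in 20 of 34 alternative settings (0.52 to 0.87), including the omission of any 1 of 12 arrays. Without each of the 4 control arrays compared the difference was 0.63 to 0.74. In order of group means, Pcolce2 was lowest in moribund and 3 week C57BL/6 lungs, which overlapped, followed by C57BL/6 at 6 weeks, A/J and C3H/HeJ at 3 weeks, both at 6 weeks, A/J and C3H/HeJ controls and C57BL/6 controls. Neighbours that overlapped were A/J and C3H/HeJ at 3 weeks, C3H/HeJ at 6 weeks and A/J controls, and the controls of these strains.

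**Figure D2:**
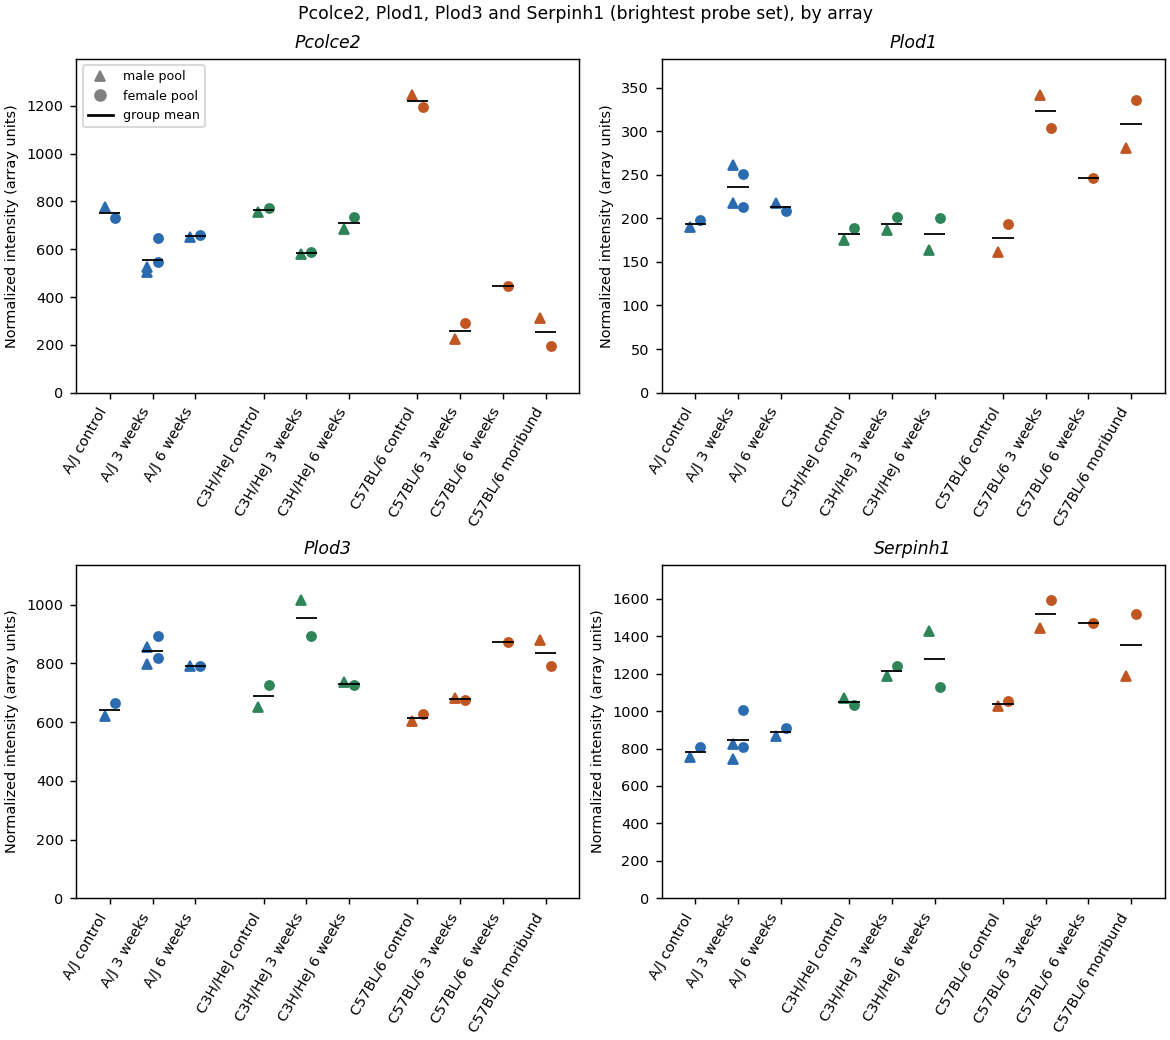
Quantile-normalized intensity (array units, linear axis from 0) of Pcolce2, Plod1, Plod3 and Serpinh1 on each of the 21 arrays. Triangles are male pools, circles are female pools and lines are group means. Pcolce2 is lowest in the 3 bleomycin-treated C57BL/6 groups, at 195.3 to 446.3, and Plod1 is highest in C57BL/6 lungs at 3 weeks and in moribund lungs.

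Levels of several cell type markers moved with Pcolce2 in C57BL/6 lungs. Of all probe sets, 5.66% were called higher and 5.04% lower there at 3 weeks, whereas tested markers were counted with 1 probe set per gene. In C3H/HeJ and A/J lungs at 3 weeks 1.7% and 0.842% were called in either direction. The summed intensity of 7 adipocyte markers was 728 to 1050 in C57BL/6 lungs at 3 weeks, against 2243 to 3436 in controls, and 4 of the 5 tested were called lower. That of 9 cardiac muscle markers was 1847 to 2433, against 5441 to 5541, with 7 of 9 called lower. The 13 fibroblast markers, which include genes of collagen-producing cells, summed to 5328 to 5967 at 3 weeks, against 7103 to 7136, with 2 of 12 tested called lower. The 14 procollagen chains on the array were higher in these pools, with sums of 19890 to 20860, against 11520 to 13200. For 4 mesothelial markers the sums were 347 to 499, against 368 to 715, and for 8 cartilage markers they were 170 to 285, against 279 to 292, so treated and control sums overlapped for both. Of the 3 mesothelial markers tested Rspo1 was called lower (-0.95, adjusted p = 0.00576), while Msln was at 1.13 without a call (adjusted p = 0.0758). Macrophage markers, 12 in number, moved the other way, with sums of 9255 to 9648 at 3 weeks, against 4282 to 4340, and 10 of 12 called higher. The 7 alveolar type 2 markers summed to 24730 to 24790 at 3 weeks, against 30540 to 31600, and 3 of them (Sftpb, Sftpa1 and Slc34a2) were called lower. In the list of 10 lung markers 5 were called lower, among them the endothelial genes Pecam1 (-0.61, adjusted p = 0.0206) and Cldn5 (-0.50, adjusted p = 0.0456) and the ciliated cell gene Foxj1 (-1.02, adjusted p = 0.0203), and 1, Pdpn, was called higher (0.52, adjusted p = 0.0483). These lung genes were picked out after their values were seen. Cardiac sums were also lower at 3 weeks in C3H/HeJ lungs, at 2389 to 3295 against 5046 to 5717 (6 of 9 called), and in A/J lungs, at 3156 to 3755 against 5738 to 6988 (4 of 9 called). Adipocyte sums at 3 weeks were 1304 to 2201 in C3H/HeJ lungs, overlapping the 1915 to 2569 of controls (1 of 5 called lower), and 1267 to 1921 in A/J lungs, against 2718 to 3232 (none called by limma, 4 of 5 at an unadjusted p under 0.05). Fibroblast sums at 3 weeks overlapped those of controls in C3H/HeJ (5707 to 5906, against 5753 to 6023) and A/J lungs (4892 to 5293, against 5114 to 5400). The part of these cell types in the Pcolce2 result was not tested.

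Plod1 hydroxylates lysines of the collagen helix, and its loss causes a kyphoscoliotic connective tissue disorder in humans. Its intensity was 341.6 and 303.8 in male and female C57BL/6 pools at 3 weeks, against 161.5 and 193.9 in controls. The difference was 0.81 (SE 0.16, adjusted p = 0.00283), a 1.75-fold rise, with no overlap of the groups. Moribund pools had 281.1 and 335.5, a rise of 0.74 (SE 0.16, adjusted p = 0.00467), and the single 6 week pool had 245.7, above both controls. In the other strains at 3 weeks the difference was 0.09 in C3H/HeJ (interval -0.24 to 0.42, adjusted p = 0.838) and 0.26 in A/J lungs (interval -0.03 to 0.54, adjusted p = 0.557). The test of C57BL/6 against C3H/HeJ responses gave 0.72 (interval 0.26 to 1.19, adjusted p = 0.154) and that against A/J 0.55 (interval 0.12 to 0.99, adjusted p = 0.226), so a strain difference was not shown for Plod1. The 3 week call was lost without the C57BL/6 male pool at 3 weeks (0.68, adjusted p = 0.0709) or the male control (0.72, adjusted p = 0.0519). The moribund call was lost without the male control (0.65, adjusted p = 0.0638) or the female moribund pool (0.65, adjusted p = 0.0568). With the deposited scaling the values were 0.64 and 0.41 and neither was called. With only the C57BL/6 arrays fitted they were 0.80 (adjusted p = 0.0616) and 0.73 (adjusted p = 0.0714), again without a call.

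Plod3 encodes the lysyl hydroxylase that also transfers sugars to collagen hydroxylysine. C57BL/6 lungs had 681.8 and 676.4 at 3 weeks, against 603.8 and 626.8 in controls, a small difference of 0.14 (adjusted p = 0.521). Moribund lungs had 881.1 and 790.6, 0.43 above the controls (SE 0.12, adjusted p = 0.0222), and the 6 week pool had 874.9. In C3H/HeJ lungs the 3 week pools had 1015 and 893.8, against 651.8 and 728.1 in controls. The groups did not overlap, and the difference of 0.46 (SE 0.12) just missed the threshold (adjusted p = 0.0567). In A/J lungs the 4 pools at 3 weeks had 797.8, 855.9, 892.9 and 819.8, against 621.7 and 664.5, again without overlap (0.38, SE 0.10, adjusted p = 0.123). At 6 weeks A/J lungs had 792.5 and 792.9, and C3H/HeJ lungs 735.7 and 726.2. The A/J pools were above both controls (0.30, adjusted p = 0.999), and the C3H/HeJ pools overlapped the controls (0.08, adjusted p = 1). The moribund call was lost without the male moribund pool (0.34, adjusted p = 0.113), the male control (0.40, adjusted p = 0.135) or the female control (0.46, adjusted p = 0.102). It was not called with the deposited scaling (0.12) or with every array scaled to 1 median (0.40, adjusted p = 0.132). The same held with only the C57BL/6 arrays fitted (0.43, adjusted p = 0.137). The 3 week response of C57BL/6 lungs was not distinguished from that of C3H/HeJ (-0.32, interval -0.67 to 0.03, adjusted p = 0.397) or A/J lungs (-0.24, interval -0.57 to 0.09, adjusted p = 0.538).

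Plod2, which hydroxylates lysines of the non-helical telopeptides and so favours the crosslinks typical of scar tissue, had no call in any comparison. Its first and second probe sets hardly moved together over the 21 arrays (r = 0.144). In C57BL/6 lungs at 3 weeks the first had 308.9 and 402.9, against 580.5 and 424.3 in controls, a difference of -0.47 (interval -0.99 to 0.04, adjusted p = 0.252). The second had 393.1 and 426.7, against 483.1 and 469.1, a difference of -0.21 (adjusted p = 0.558). Both Plod2 sets were thus on the low side in every 3 week C57BL/6 pool, by amounts that did not pass. In moribund lungs the second had 312.8 and 342.4, and its difference of -0.52 came nearest to the threshold (interval -0.92 to -0.12, adjusted p = 0.0849). In the other strains its 3 week differences were -0.25 in C3H/HeJ and 0.08 in A/J lungs, neither called.

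The prolyl 4-hydroxylase subunits, which form the enzyme together with P4hb, gave no call. For P4ha1, the first probe set had 181 and 237.7 in C57BL/6 lungs at 3 weeks, against 237.4 and 306.8 in controls, a difference of -0.36 (interval -0.69 to -0.02, adjusted p = 0.174). The second had 96.4 and 102.5, against 138.6 and 135.4 (-0.41, adjusted p = 0.22). In moribund lungs these were -0.43 (adjusted p = 0.0883) and -0.39 (adjusted p = 0.215). Each P4ha1 probe set was therefore lower on average in these treated C57BL/6 groups, without a call. In C3H/HeJ lungs at 3 weeks the second had 217.8 and 243.1, against 152.1 and 168.3 (0.48, interval 0.07 to 0.90, adjusted p = 0.256). The response difference of C57BL/6 against C3H/HeJ for that probe set was -0.89 (interval -1.48 to -0.30, adjusted p = 0.165). In the single 6 week C57BL/6 pool the P4ha1 probe sets disagreed, with 227.8 on the second, above both controls, and 228.4 on the first, below both. P4ha2 lay between 187.6 and 337.6 over all arrays, and its 3 week differences were 0.11 in C57BL/6, -0.32 in C3H/HeJ and 0.03 in A/J lungs (adjusted p = 0.819, 0.558 and 0.98).

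Serpinh1, the collagen-specific chaperone, had 1443 and 1592 on its first probe set in C57BL/6 lungs at 3 weeks, against 1026 and 1054 in controls. This was a rise of 0.54 (SE 0.15, adjusted p = 0.0253), 1.45-fold, without overlap. Moribund pools had 1188 and 1518 (0.36, adjusted p = 0.115) and the 6 week pool 1469, all above the controls. In C3H/HeJ lungs the 3 week pools had 1186 and 1240, against 1068 and 1033 (0.20, interval -0.10 to 0.51, adjusted p = 0.553). In A/J lungs they had 746, 826.3, 806.3 and 1004, against 752.8 and 807.5, and these groups overlapped (0.11, interval -0.16 to 0.37, adjusted p = 0.844). The second probe set, whose x suffix marks probes that may bind other transcripts, followed the first over arrays (r = 0.747). It had 760 and 981.1 in C57BL/6 lungs at 3 weeks, against 682.6 and 684.2 (0.33, adjusted p = 0.156). In A/J lungs at 3 weeks it had 374.8, 368.3, 394.3 and 382.7, all below the controls at 435.5 and 467 (-0.24, adjusted p = 0.541). It was also higher in C57BL/6 than in A/J controls (682.6 and 684.2, against 435.5 and 467), by 0.58 (SE 0.14, adjusted p = 0.031). That control call was lost without any of the 4 control arrays compared (0.54 to 0.63). The 3 week call of the first probe set was lost without any of the 4 C57BL/6 3 week and control arrays (0.50 to 0.57). It was also lost with the deposited scaling (0.43, adjusted p = 0.523) and with only the C57BL/6 arrays fitted (0.54, adjusted p = 0.0822).

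Ppib, the cyclophilin that helps collagen fold and whose loss causes brittle bone disease in humans, had no call. Its first probe set ran from 1809 to 2556 over all 21 arrays, and its differences from controls at 3 weeks were 0.08 in C57BL/6, -0.003 in C3H/HeJ and -0.26 in A/J lungs. The intervals were -0.19 to 0.35, -0.27 to 0.27 and -0.49 to -0.02, and none was called (adjusted p = 0.779, 0.996 and 0.442). The second Ppib probe set, also with an x suffix, ran from 869.3 to 1359 and followed the first only weakly (r = 0.26). In C57BL/6 lungs it had 1280 to 1298 at 3 weeks and 869.3 to 1083 in moribund pools, against 1103 to 1162 in controls, without a call.

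Bmp1 encodes the protease that removes the C-terminal propeptide of fibrillar procollagens and also activates lysyl oxidase. On its first probe set it had 267.5 and 228.3 in C57BL/6 lungs at 3 weeks, against 204 and 190.8 in controls (0.30, adjusted p = 0.287). C3H/HeJ lungs had 266.2 and 224.4, against 179.7 and 194.1 (0.36, adjusted p = 0.324), and A/J lungs had 210.2, 215.2, 193.3 and 179.6, against 173 and 168.4 (0.20, adjusted p = 0.688). In each strain every 3 week pool lay above the controls, though no strain had a call alone. How many of all probe sets separate in this way was not counted, here or for other members without overlap. With the deposited scaling the Bmp1 difference in the mean of strains was 0.01. At 6 weeks C3H/HeJ lungs had 263.3 and 309.2, a difference of 0.57 (SE 0.17) with an adjusted p = 0.653. The single C57BL/6 pool at 6 weeks had 310.6, the highest value of any array. The 2 dim Bmp1 probe sets ranged from 22.2 to 84.1 and from 9.46 to 53.1, and their correlations with the bright one were 0.354 and -0.136.

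Pcolce, the other procollagen C-proteinase enhancer, had no call. Its first probe set had 895 and 788.4 in C57BL/6 lungs at 3 weeks, against 732.8 and 787.5 in controls (0.14, interval -0.22 to 0.50, adjusted p = 0.675). In moribund lungs it had 615.2 and 699.3 (-0.21, adjusted p = 0.477). Its second probe set gave 692.4 and 755.7 at 3 weeks, against 700.1 and 648.6 (0.10, interval -0.21 to 0.41, adjusted p = 0.743). At 3 weeks treated and control pools overlapped on the second Pcolce probe set, while on the first the lower treated pool was just above the higher control. Over the other strains and stages the Pcolce values stayed between 505.2 and 867.7.

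**Figure D3:**
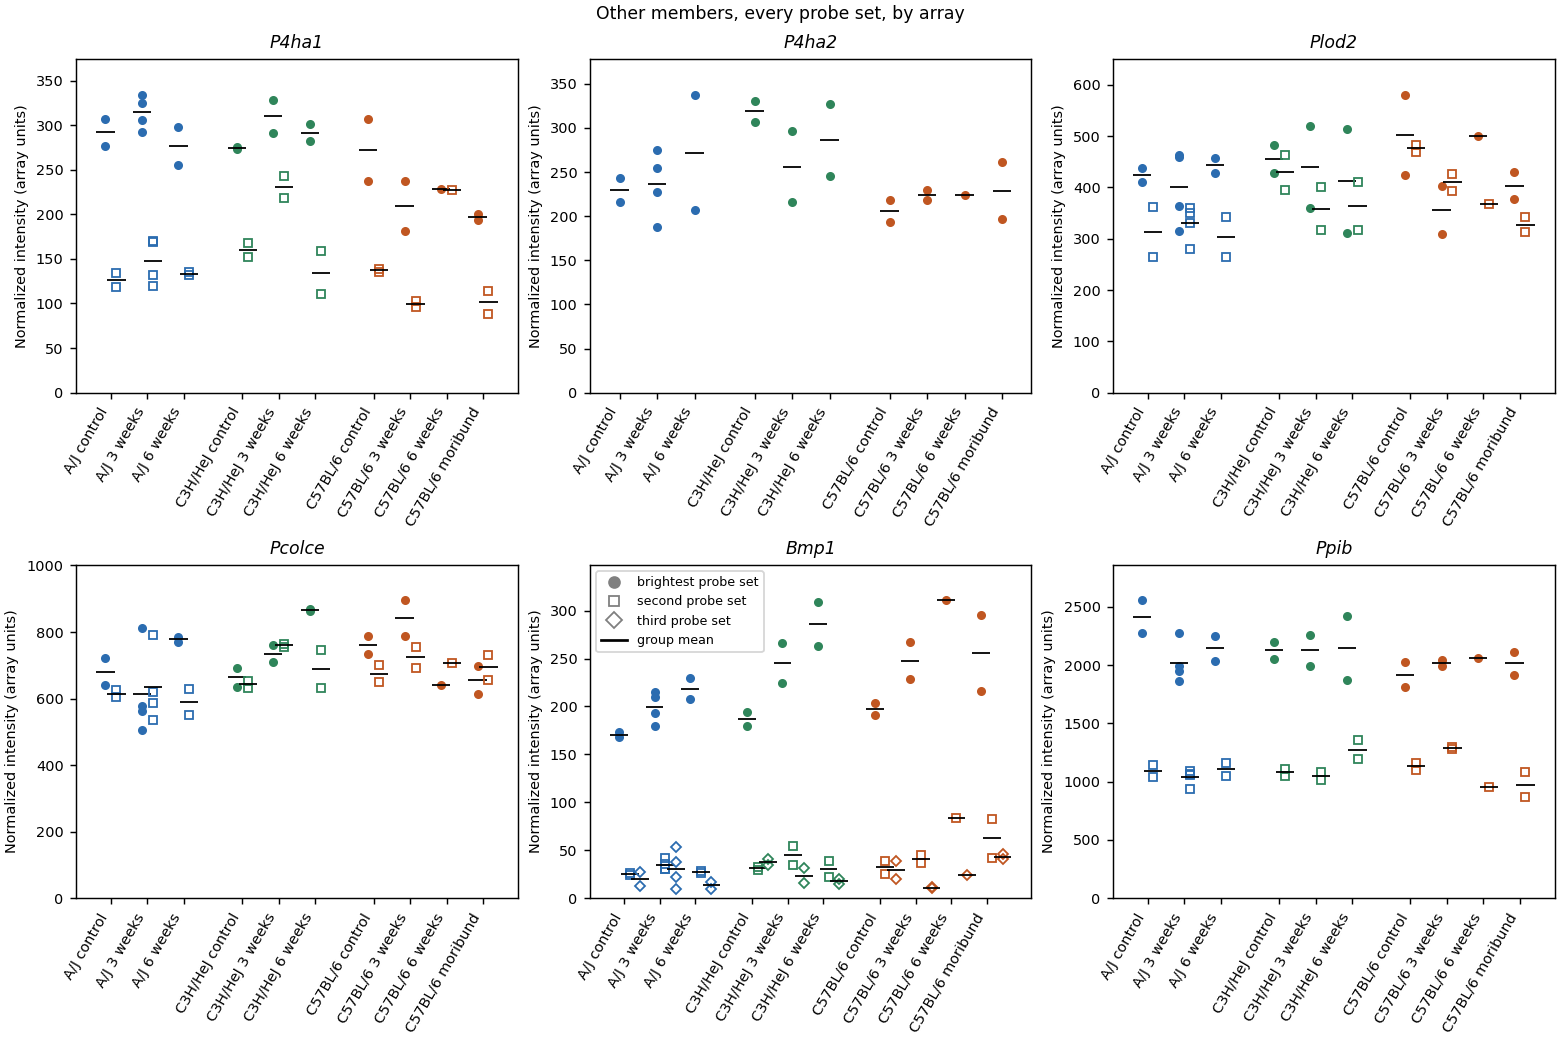
Quantile-normalized intensity (array units, linear axis from 0) of every probe set of P4ha1, P4ha2, Plod2, Pcolce, Bmp1 and Ppib on each array, with group means as lines. Filled circles are the brightest probe set of the gene and open squares and diamonds the others. The bright Bmp1 probe set lies above the controls of its strain in every 3 week pool, without a call in any strain. The first Ppib probe set runs from 1809 to 2556.

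Averaged over the 3 strains, 5 of 15 probe sets were called at 3 weeks, 4 higher and 1 lower, against 13.7% of all probe sets (6.48% higher and 7.27% lower). The mean difference was -0.998 for Pcolce2 (SE 0.10, adjusted p = 4.44e-06), from the strain values of -2.19, -0.37 and -0.43 given above. It was 0.38 for Plod1 (SE 0.09, adjusted p = 0.00686) and 0.33 for Plod3 (SE 0.06, adjusted p = 0.00284). The first probe set of Serpinh1 was 0.28 higher (SE 0.08, adjusted p = 0.0277) but turned to -0.03 with the deposited scaling, where the median of all probe sets itself was -0.27. Bmp1 was 0.29 higher (SE 0.09, adjusted p = 0.0477). The median of the 15 member differences was 0.04, and that of all probe sets -0.01. With the deposited scaling Plod1 (0.11), Plod3 (0.02) and Bmp1 (0.01) were not called, and Pcolce2 was (-1.32). That scaling called 2598 probe sets, 241 of them higher, in place of 2073, of which 977 were higher. The Bmp1 call was lost without any 1 of 14 arrays, with values of 0.25 to 0.33, and the Serpinh1 call without any 1 of 8, with values of 0.26 to 0.29. Without both male arrays with raised Xist, Bmp1 (0.24, adjusted p = 0.168) and Serpinh1 (0.30, adjusted p = 0.0511) were not called either. The 8 arrays were both A/J controls, the 4 C57BL/6 3 week and control arrays, the C3H/HeJ male 3 week array and the C3H/HeJ female control. For Bmp1 the other arrays were the male A/J arrays at 3 weeks, the female A/J array at 3 weeks and 100 mg/kg, both A/J arrays at 6 weeks and the C3H/HeJ male control.

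Other genes that fold and process collagen were also counted. Of 26 listed genes 18 were on the array and 15 were tested, and in the mean of strains at 3 weeks 3 rose and none fell, with a median of 0.12 that turned to -0.16 with the deposited scaling. Over all 9079 genes 7.26% rose and 8.16% fell, with a median of -0.01. Those that rose were Colgalt1, which adds galactose to collagen hydroxylysine (0.51, adjusted p = 0.00011), Furin, a protease that matures Bmp1 (0.38, adjusted p = 0.0109), and Tmem38b, an endoplasmic reticulum cation channel linked to brittle bone disease in humans (0.38, adjusted p = 0.0197). In moribund C57BL/6 lungs 5 of 15 rose and none fell, where 6.41% of all genes rose and 7.54% fell, among them Colgalt1 (0.90, adjusted p = 0.000163) and P4hb, the partner of the prolyl hydroxylase subunits (0.41, adjusted p = 0.0206). With the deposited scaling none of the 15 was called in these comparisons.

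The lysyl oxidases, which crosslink the processed fibrils, had 2 of 4 tested genes called in the mean of strains. Lox, which Bmp1 activates, rose by 1.43 (adjusted p = 7.96e-07), and Loxl1 by 0.58 (adjusted p = 0.00674). In moribund C57BL/6 lungs Lox was 2.39 higher (adjusted p = 2.91e-06), and Loxl1 was 0.66 higher without a call (adjusted p = 0.0765). Of 13 procollagen chains tested, of fibrillar and other types, 10 rose and none fell in the mean of strains. Their median was 0.53 (0.25 with the deposited scaling, where 2 were called). Col5a2 rose by 1.26 (adjusted p = 3.79e-07) and Col1a1 by 1.02 (adjusted p = 5.57e-05). In moribund C57BL/6 lungs 9 of 13 chains rose and none fell, beside the same 6.41% and 7.54% of all genes. Their median was 0.91, beside a median of 0.10 for the 10 members (brightest probe set of each). With the deposited scaling the median of all probe sets in moribund lungs was -0.28. Of 809 calls with that scaling 171 were higher, in place of 884 of 1925.

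**Figure D4:**
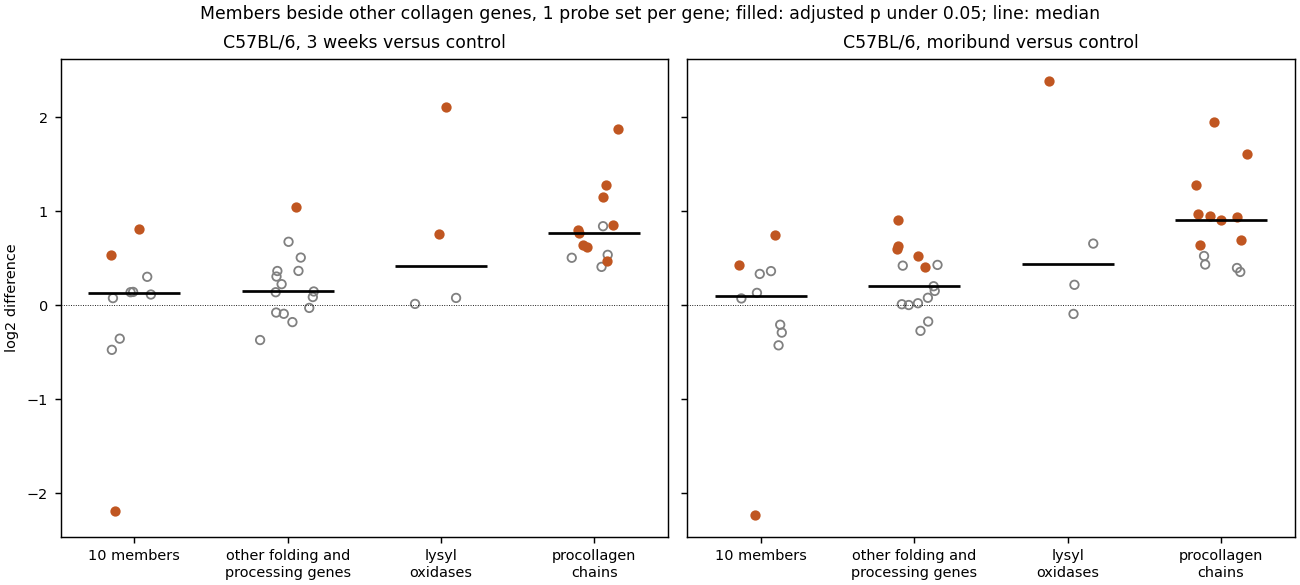
Differences in log2(normalized intensity + 16), 1 probe set per gene, of the 10 members, 15 other folding and processing genes, 4 lysyl oxidases and 13 procollagen chains in C57BL/6 lungs at 3 weeks and in moribund lungs, each against controls. Filled points passed an adjusted p under 0.05 and lines are medians. The median of the members lies at 0.13 and 0.10, and that of the procollagen chains at 0.77 and 0.91.

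General chaperones and stress genes of the endoplasmic reticulum were mixed. Of 20 tested, 2 rose and 2 fell in the mean of strains at 3 weeks, with a median of 0.01. In that comparison 6.48% of all probe sets were called higher and 7.27% lower, whereas the lists here hold 1 probe set per gene. Dnajb11, a cochaperone of the Hspa5 chaperone, rose by 0.44 (adjusted p = 0.0157), and Atf4, a transcription factor of the stress response, was lower by -0.33 (adjusted p = 0.0348). With the deposited scaling none rose and 4 fell. Of 13 hypoxia response genes tested, Ldha was higher (0.59, adjusted p = 0.000874) and Vegfa lower (-0.33, adjusted p = 0.00476), and the median was -0.03. With the deposited scaling none was higher and 4 were lower.

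The genes whose pattern was most like that of a member were found by Pearson correlation of the 10 group means over all tested probe sets with 1 symbol. The group means share strains, controls and arrays, so these values describe likeness and carry no test. For Pcolce2 they were Zfp395 (r = 0.978) and Kank3 (0.977), and for Plod1 they were Vars (0.978) and Pgd (0.974). Plod3 was nearest to Hs2st1 (0.96) and Atp13a3 (0.947), and Serpinh1 to Tubb2a (0.966) and Eif2s2 (0.96). Bmp1 had as its nearest pattern Sparc (0.911), a collagen-binding matrix protein, and then Caml (0.902). P4ha1 was nearest to Hey1 (0.984) and Irf1 (0.977), P4ha2 to Magee1 (0.927) and Rab4a (0.911), and Plod2 to Rnf141 (0.935) and Etnk1 (0.914). Pcolce and Ppib had the weakest nearest patterns, Ndfip1 (0.897) and Csnk1a1 (0.871) for Pcolce, and Aacs (0.861) and Elovl6 (0.854) for Ppib. Over the 21 single arrays the same pairs were less alike, for example 0.38 for P4ha2 with Magee1, 0.255 for Pcolce with Csnk1a1 and 0.402 for Ppib with Aacs, against 0.912 for P4ha1 with Hey1 and 0.853 for Pcolce2 with Kank3. No member was among the nearest patterns of another.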

How the data were processed

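Lung RNA of pooled mice was measured on 21 arrays. Trizol extraction and standard Affymetrix processing are stated per the labels. The authors deposited linear intensity values for 22690 probe sets; the sources used here do not give the summary software, background correction or scaling. Array control probe sets, 64 in number, were removed. Of the rest, 20380 had 1 gene symbol in the platform annotation, 691 several and 1555 none, and 20351 symbols were matched to a current one.

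Values were quantile normalized, 16 was added and log2 taken. A filter on mean signal removed the dimmest 33.3% of probe sets, and 15084 remained. In R 4.3.3 with limma 3.58.1, lmFit, contrasts.fit and eBayes with trend were run with a term for each of the 10 strain by stage groups and a term for sex (10 residual degrees of freedom). The C57BL/6 group at 6 weeks had 1 array and was given as values. Where a gene has several probe sets, each was tested, and gene lists used the one with the highest mean. The script was tested on simulated data. The number of arrays limits the precision.

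The members and lists were chosen with earlier results of these data known. Every member probe set is described. From the other lists, cell type markers apart, the genes named were among the at most 4 with the smallest p called in the mean of strains or in moribund lungs. For each member the 2 genes with the nearest pattern were named too. This rule did not cover the cell type markers, and those named for their changes were picked out after their values were seen. Alternatives were scalings, offsets, dim filters, no sex term, only the strains compared, 1 probe set per gene, array weights, A/J doses, an adjusted p under 0.1 and leaving out each array.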

Additional observations from a re-analysis of the deposited data

Results flagged for a closer look

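The 3 week response of Pcolce2 differed between strains by a test of the difference itself. The C57BL/6 response minus the A/J response was -1.75 (adjusted p = 0.00231, limma), and every C57BL/6 pool at 3 weeks and every A/J pool at 3 weeks lay below the controls of its strain. The C57BL/6 response minus the C3H/HeJ response was -1.81 (adjusted p = 0.00574). These were the called differences among 45 tested for member probe sets. Neither was called by limma with the deposited scaling (adjusted p = 0.248 against A/J and 0.46 against C3H/HeJ). The difference against C3H/HeJ was also not called when only the strains compared were fitted (-1.81, adjusted p = 0.113). No member value in the A/J group at 3 weeks, the only group of 4 arrays, stood apart from the others by Dixon's criterion over 17 probe sets.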

How the results depend on the processing

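No paired analysis was possible because the labels give no replicate numbers that tie pools of different groups. The Pcolce2 calls in C57BL/6 lungs at 3 weeks, in moribund lungs and in the mean of strains were kept in all 33 alternative settings. The deposited scaling left 1 member called in place of 5 in the mean of strains, 1 of 3 in C57BL/6 at 3 weeks, 1 of 3 in moribund lungs, 0 of 1 in each response difference with C57BL/6 and 0 of 2 between C57BL/6 and A/J controls, and the first probe set of Serpinh1 reversed to -0.0254 in the mean of strains. The median of all probe sets in the mean of strains was -0.27 with that scaling, against -0.01. Scaling to 1 median ended the Plod3 call in moribund lungs (0.40) and gave 3 in the mean of strains and 0 between C57BL/6 and A/J controls. Fitting only the strains compared gave 1 in C57BL/6 at 3 weeks, 1 in moribund lungs, 0 for the C57BL/6 and C3H/HeJ response difference and 1 between C57BL/6 and A/J controls. An adjusted p under 0.1 gave 1 in C3H/HeJ at 3 weeks, 5 in moribund lungs and 2 between C57BL/6 and C3H/HeJ controls. Without a sex term there was 1 in C3H/HeJ at 3 weeks and 1 between C57BL/6 and C3H/HeJ controls. Taking 1 probe set per gene gave 1 in C3H/HeJ at 3 weeks and 1 between C57BL/6 and A/J controls. Array weights gave 1 in A/J at 3 weeks, 4 between C57BL/6 and A/J controls and 2 between C57BL/6 and C3H/HeJ controls. Between C57BL/6 and A/J controls, an offset of 1 gave 1, no dim filter 1 and A/J doses matched to the other strains 0; an offset of 64 gave 1 between C57BL/6 and C3H/HeJ controls. Chosen after seeing the data, array brightness as a covariate gave 3 in the mean of strains and 1 between C57BL/6 and A/J controls. Leaving out the 2 male arrays with the highest Xist, also chosen afterwards, gave 3 in the mean of strains, 1 between C57BL/6 and A/J controls and 1 between C57BL/6 and C3H/HeJ controls. The cause of these shifts was not tested.

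Leaving out each array in turn gave 3 to 5 members called in the mean of strains, 1 to 3 in C57BL/6 at 3 weeks, 0 to 1 in C3H/HeJ at 3 weeks, 1 to 3 in moribund lungs, 0 to 1 for the C57BL/6 and C3H/HeJ response difference, 0 to 2 between C57BL/6 and A/J controls and 0 to 1 between C57BL/6 and C3H/HeJ controls. The lone array left in a group was then assumed to vary like the other groups. Of 225 member differences without a call, 110 changed sign in some setting and 6 were called in some. Over all probe sets, the share of higher calls moved with scaling: in C57BL/6 at 3 weeks 906 of 1420 calls were higher with 1 median, against 854 of 1614, and in C3H/HeJ at 3 weeks 26 of 69 as deposited, against 171 of 257. In A/J at 3 weeks 17 of 53 were higher as deposited, against 98 of 127, and for the C57BL/6 and A/J response difference 24 of 25, against 91 of 162. Most groups held 2 arrays, and that number limits the precision.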
